A study of Arabidopsis thaliana with 11 samples.

Results

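Class III peroxidases outside root hairs were examined in sorted root cells of Arabidopsis thaliana. A list of 60 peroxidase loci was matched to the array through the probe annotation, and a probe set was kept only where it named exactly 1 gene. This gave 45 genes with 1 probe set each, of 13355 genes that had such a probe set and 22746 probe sets tested. Of the 15 genes left out, 7 lay in 4 probe sets shared by several genes and 8 were not named in the annotation table, among them RCI3, PER4, PRXCA, PRXCB and PA2. The measured genes are therefore not the whole family.

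Class III peroxidases are secreted haem enzymes that use hydrogen peroxide as oxidant. In the cell wall they can couple lignin precursors and wall proteins, which stiffens the wall, and they can also produce reactive oxygen species that loosen it. Their oxidant comes in part from NADPH oxidases of the plasma membrane, which make superoxide outside the cell, and the transcription factor UPB1 is known to repress a group of peroxidases in the root growth zone.

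RNA was measured on 11 Affymetrix arrays in 4 groups. Cortex cells came from line J1551, with 3 control and 3 salt samples, and pericycle cells came from line J2731, with 2 control and 3 salt samples. All seedlings were 7 days old and were grown in the same sucrose-containing medium, and the plants of a tank formed a biological sample. Salt-treated seedlings had 5 days without salt, a day at 25 mM NaCl with 0.22 mM CaCl2 and a day at 50 mM NaCl with 0.375 mM CaCl2, whereas controls had 7 days without added salt. The calcium was therefore raised together with the sodium, and their parts cannot be told apart. Every sample, controls included, was made by digesting roots to protoplasts and sorting the fluorescent cells, so no group was free of that handling. The labels name no driver for the fluorescent marker of either line, and each cell type was sampled from a different line, so line and cell type cannot be told apart.

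The values are log2 expression values as the authors deposited them, and levels of different probe sets were not set against each other. The dim limit used here is 2.81, the 40th percentile of the means over arrays, and a fold in which a group lay near or below it can be too small. Values of single genes are given in replicate order within each group. Differences come from limma fitted to all arrays, with their standard errors (SE) and with p-values adjusted over all probe sets by the Benjamini-Hochberg method. A gene was counted as changed at an adjusted p under 0.05.

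Replicates of cortex resembled each other more than those of pericycle. Within-group correlations over all probe sets were 0.987 to 0.994 in the cortex groups, 0.947 between the pericycle controls and 0.917 to 0.966 among the pericycle salt samples. Pericycle salt replicate 1 stood apart, with correlations of 0.917 and 0.919 to the other salt samples. Several differences printed below that moved by over 1.5 times without it are given without it as well. Small differences that moved as much are given only with it. Among these are AT5G64100 with salt in pericycle and AT5G15180 between cell types under salt. The median standard deviation (SD) of the peroxidase probe sets was 0.185 and 0.182 in the cortex groups, 0.232 in pericycle controls and 0.375 in pericycle salt samples. The difference of GAPDH 3′ minus 5′ probe sets, a sign of RNA quality, spanned 1.10 to 1.25 in cortex controls, 1.01 to 1.40 in cortex salt, 1.43 to 1.49 in pericycle controls and 1.10 to 1.35 in pericycle salt samples. Of the pericycle markers, 1 of 5 was measured, the lateral root founder factor LBD16, and its mean was 6.14 and 6.44 in the pericycle groups against 2.26 and 2.06 in the cortex groups. Of the cortex markers, 3 of 4 were measured, and none was higher in cortex. AT1G62500 and AT1G62510 were below 2.81 in every group, and AT1G09750 averaged 5.05 and 4.41 in the cortex groups against 5.87 and 5.45 in pericycle. The cortex label therefore rests on the marker line and not on these genes. No endodermis marker (0 of 8) and no xylem marker (0 of 7) was measured, and the phloem gene OPS, 1 of 5, averaged 4.31 and 4.26 in cortex against 5.98 and 7.08 in pericycle.

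**Figure D1:**
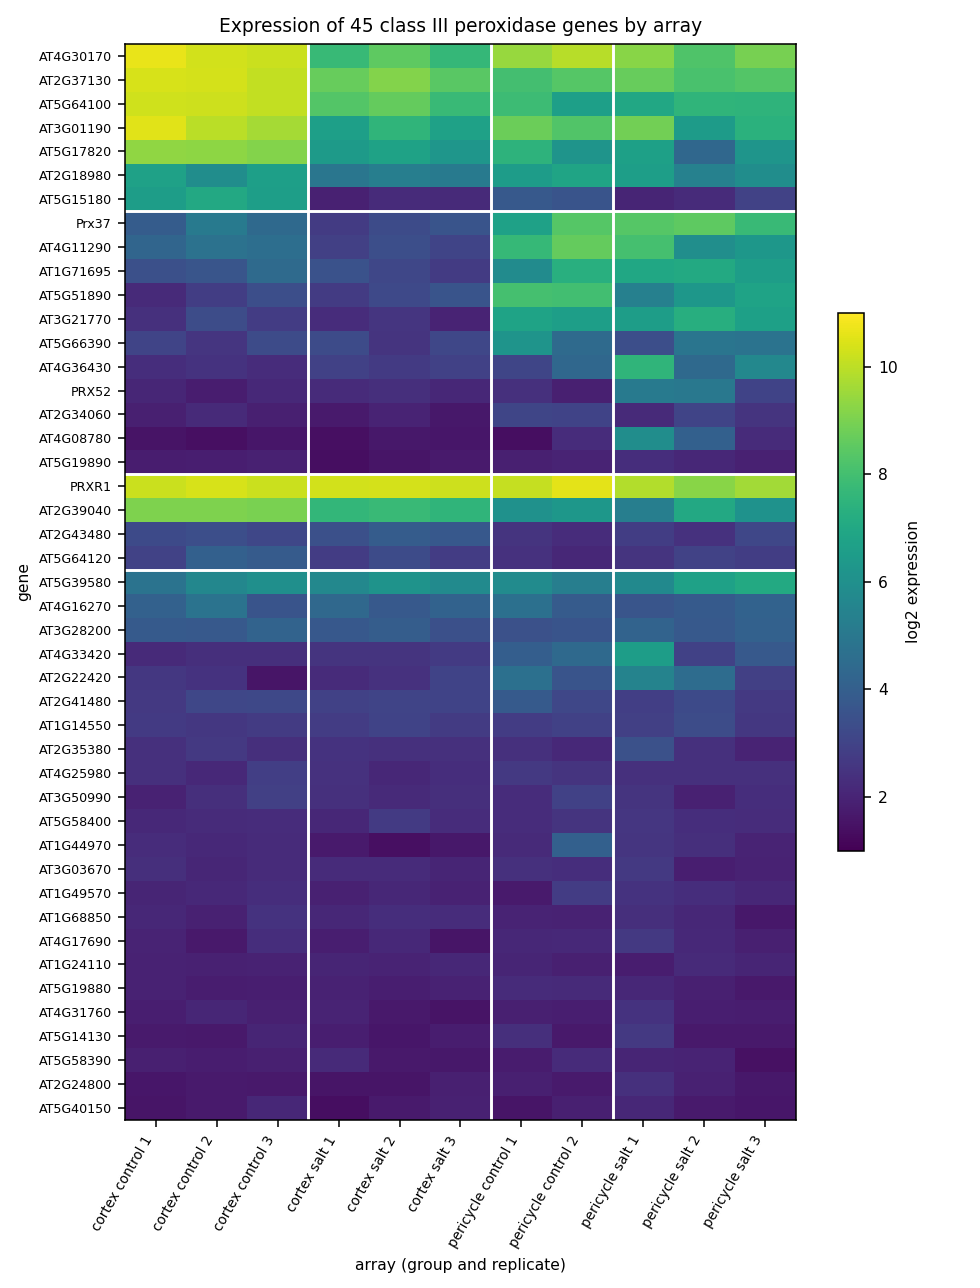
Log2 expression of the 45 peroxidase probe sets (rows) on the 11 arrays (columns, grouped by cell type and treatment), with colour for the level on the deposited log2 scale. Of the 45 genes, 16 had all 4 group means below 2.81 and show as dark rows.

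The first comparison asked how cortex cells changed with salt. In cortex, 7 of the 45 peroxidases fell and 0 rose. They made up 15.6% of the peroxidases, whereas 4.16% of all probe sets passed, 2.73% falling and 1.43% rising. The median log2 difference over the 45 genes was -0.08, against 0.01 over all probe sets, but 20 of the 45 had a mean below the dim limit and little room to fall. Without dim probe sets, 8 of 25 peroxidases fell, against 6.35% of 13648 probe sets that passed in either direction. Groups did not overlap for 16 of the 45 genes (35.6%), close to the 34.1% of all probe sets. Of these, 12 were lower (26.7%, against 14.8% of all probe sets) and 4 higher (8.89%, against 19.3%). In these sorted-cell samples, fewer cells of a type and less RNA per cell cannot be told apart.

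AT5G15180 had the largest decrease of the measured peroxidases. Its log2 level was 6.59, 7.02 and 6.61 in the cortex controls and 1.92, 2.23 and 2.21 under salt. The groups were far apart, and every salt value lay below the dim limit. The difference was -4.62 ± 0.243 (SE, n = 3 and 3, limma adjusted p = 2.15e-05), or 24.6-fold lower, and the true fold can be larger because the salt values were at the low end of the scale. In pericycle the same gene read 3.79 and 3.60 in the controls and 2.05, 2.23 and 2.96 under salt, again without overlap. This smaller difference of -1.28 ± 0.272 (n = 2 and 3) just passed at an adjusted p of 0.0456, and it missed in 15 of 18 alternative settings.

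AT4G30170, AT3G01190 and AT5G17820 followed in size. AT4G30170 read 10.65, 10.34 and 10.19 in cortex controls and 7.73, 8.51 and 7.66 under salt, a fall of 2.43 ± 0.308 on the log2 scale (5.38-fold, adjusted p = 0.00193). AT3G01190 read 10.56, 9.95 and 9.66 without salt and 6.66, 7.56 and 6.73 with it, a fall of 3.07 ± 0.528 (8.42-fold, adjusted p = 0.0103). For both genes every salt value lay far below every control value. AT5G17820, reported as a target repressed by UPB1, read 9.33, 9.30 and 9.13 in controls and 6.44, 6.77 and 6.26 under salt, a fall of 2.76 ± 0.537 (6.77-fold, adjusted p = 0.0192). Its 3 control values lay close together and well above every salt value. AT4G30170 passed in all settings tried. AT3G01190 missed the threshold without cortex control replicate 1 or cortex salt replicate 1 or 3 (highest adjusted p = 0.0600), and AT5G17820 missed it without any single cortex array (highest adjusted p = 0.0964).

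AT5G64100, AT2G37130 and AT2G18980 fell by less. AT5G64100 read 10.27, 10.25 and 10.08 in cortex controls and 8.31, 8.65 and 7.78 under salt, a fall of 1.95 ± 0.324 (3.87-fold, adjusted p = 0.00856). AT2G37130 read 10.39, 10.35 and 10.09 without salt and 8.69, 9.16 and 8.44 with it, a fall of 1.52 ± 0.226 (2.86-fold, adjusted p = 0.00481). For both genes the controls were tight and did not overlap with the salt samples, and both passed in all settings tried. AT2G18980 read 6.72, 5.89 and 6.63 in controls and 4.94, 5.26 and 5.11 under salt, a fall of 1.31 ± 0.315 (2.48-fold, adjusted p = 0.0487). Its groups did not overlap, but it stayed past the threshold in only 6 of 18 alternative settings and reached an adjusted p of 0.189 without cortex salt replicate 1. AT2G39040 lay just outside the threshold, at 9.08, 9.06 and 8.97 in cortex controls and 7.61, 7.78 and 7.56 under salt, a difference of -1.39 (adjusted p = 0.0581) between groups that did not overlap. AT2G39040 passed without dim probe sets (adjusted p = 0.0434) and without pericycle salt replicate 1 (adjusted p = 0.00512). With the cortex arrays alone its adjusted p in limma was 1.51e-04. That fit called 11 peroxidases lower and 1 higher, and 19.7% of all probe sets passed. AT4G11290, Prx37 and AT1G44970 were also lower there, and AT4G36430 was higher. The main fit shares 1 spread per gene with the more variable pericycle arrays.

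**Figure D2:**
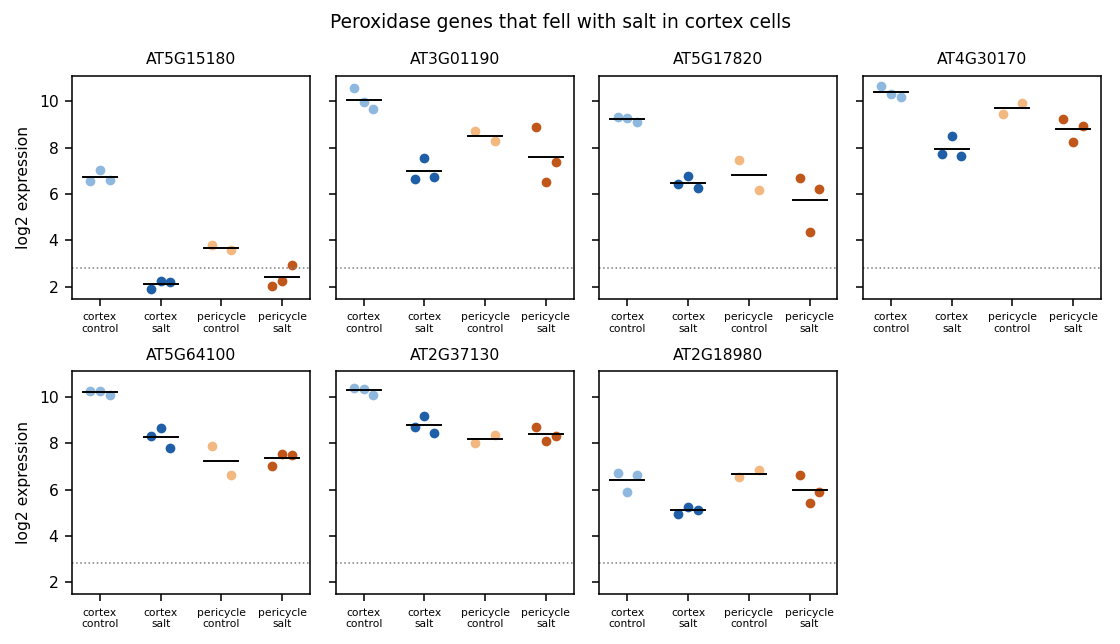
Log2 level (vertical axis) of the peroxidases that fell with salt in cortex, with a panel per gene and the 4 groups along the horizontal axis. Points are arrays, black lines are group means and the dotted line is the dim limit of 2.81. In each of the 7 panels the cortex salt arrays lie below all cortex control arrays.

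Root hair genes were measured alongside, and all of them had negative differences with salt in cortex. Of the class III peroxidases assigned to root hairs, 4 of 5 were measured, and their mean log2 level per array spanned 5.55 to 6.40 in cortex controls and 4.17 to 4.32 in cortex salt samples. In pericycle it spanned 4.34 to 5.25 without salt and 2.51 to 4.44 with it. The median difference with salt was -1.74 in cortex and -1.26 in pericycle, and AT1G30870 passed in cortex (-1.65 ± 0.398, adjusted p = 0.0491), though not when any single cortex array was left out. AT1G30870 also missed the threshold with quantile normalization, with a replicate block and with 1 probe set per gene. Of 14 other root hair markers 3 were measured, XTH26, EXPA7 and EXPA18. Their mean spanned 4.53 to 5.16 in cortex controls, 3.15 to 3.86 in cortex salt samples, 3.50 to 4.24 in pericycle controls and 2.63 to 4.18 in pericycle salt samples, with none past the threshold. EXPA7 read 2.31, 2.35 and 3.85 in the last group, and none of the 3 was below 2.81 in every group. AT5G64100 is itself reported to act in root hair growth at low temperature, as is AT5G39580, so the family outside root hairs is not free of genes with a role there. The part of root hair RNA in the peroxidase decreases was not tested.

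Genes of NADPH oxidases were measured as well. Of 10 such genes 3 were measured, and all 3 fell with salt in cortex, where 2.73% of all probe sets fell. Whether these 3 supply oxidant to the peroxidases described here was not tested. AT4G25090 read 5.87, 5.66 and 5.74 in cortex controls and 2.53, 2.96 and 2.87 under salt (-2.97 ± 0.364, adjusted p = 0.0016). AT4G11230 read 5.80, 5.79 and 5.70 without salt and 2.44, 2.49 and 3.17 with it (-3.06 ± 0.391, adjusted p = 0.00202). The salt values of both lay near the dim limit, about 3 log2 units below the controls. AT1G19230 read 5.95, 5.47 and 5.54 in controls and 4.17, 4.13 and 3.92 under salt (-1.58 ± 0.293, adjusted p = 0.0153), and it missed the threshold without cortex control replicate 1 or without any single cortex salt array. In pericycle none of the 3 passed, with differences of -1.11 to -0.15. There 2 of 3 had an unadjusted p under 0.05, as had 3639 of all 22746 probe sets. AT1G19230 was lower there without overlap (-0.93, adjusted p = 0.198). Without salt, AT4G25090 (-2.87, adjusted p = 0.00127) and AT4G11230 (-2.33, adjusted p = 0.00582) were lower in pericycle than in cortex. Of all probe sets 8.18% were, and AT1G19230 did not pass (-0.85). AT4G25090 read 3.72 and 2.05 in pericycle controls, near the dim limit and with little room to fall. The repressor UPB1 read 10.04, 10.25 and 10.28 in cortex controls and 10.16, 10.08 and 9.99 under salt, overlapping groups with a difference of -0.12 (95% interval -0.64 to 0.41).

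**Figure D3:**
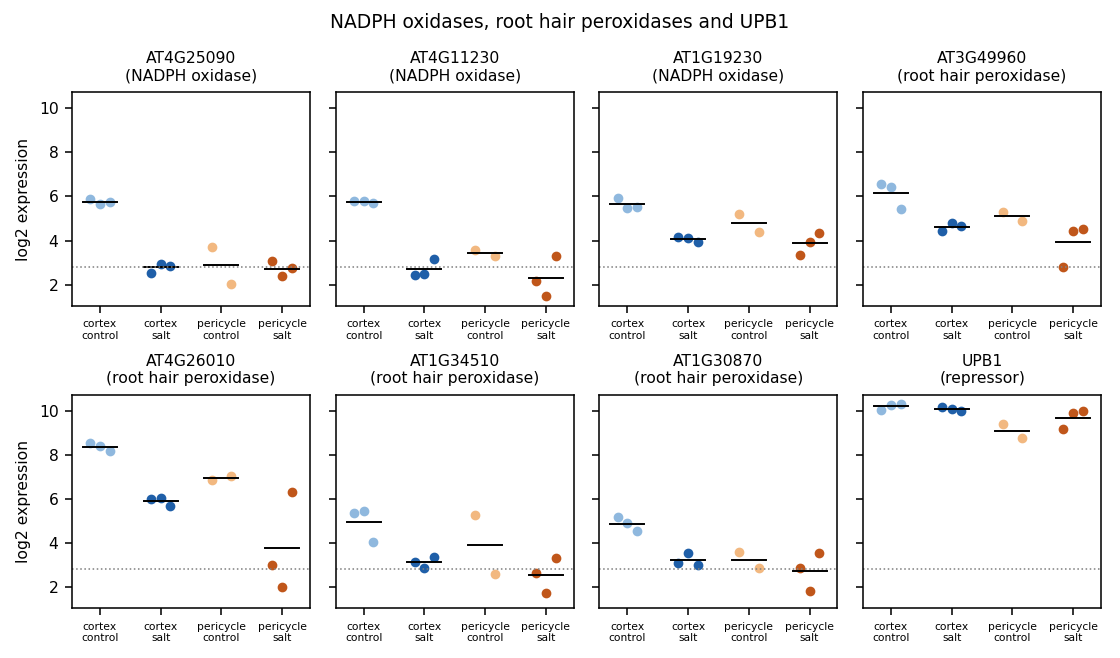
Log2 level (vertical axis) of the 3 measured NADPH oxidases, the 4 measured root hair peroxidases and UPB1, with a panel per gene and the 4 groups along the horizontal axis. Points are arrays, black lines are group means and the dotted line is the dim limit of 2.81. The NADPH oxidase arrays of the cortex salt group lie below all cortex control arrays, while the UPB1 values of these groups overlap.

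The same question in pericycle gave few calls. Of the 45 peroxidases 1 passed (2.22%), AT5G15180, against 1.99% of all probe sets (0.950% falling, 1.04% rising), so the share is near the background. The median difference was 0.07 over the 45 genes and 0.00 over all probe sets. An unadjusted p under 0.05 was found for 10 of the 45, against 3639 of all 22746 probe sets. Groups did not overlap for 10 of the 45 genes (22.2%), against 21.0% of all probe sets, with 6 lower (13.3%, against 10.8%) and 4 higher (8.89%, against 10.2%). Without pericycle salt replicate 1, AT4G11290 (-2.07, adjusted p = 0.0144) and PRXR1 (-0.94, adjusted p = 0.0371) fell and AT5G15180 missed the threshold (adjusted p = 0.0508), while 4.29% of all probe sets passed. Without replicate 3, 2 peroxidases rose and 2 fell, and 4.77% of all probe sets passed. Without replicate 2, 1 rose and 0 fell, and 1.96% of all probe sets passed.

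Among the genes that fell in cortex, AT4G30170 read 9.47 and 9.94 in pericycle controls and 9.24, 8.25 and 8.93 under salt, a difference of -0.90 (adjusted p = 0.23). AT3G01190 read 8.74 and 8.27 without salt and 8.89, 6.51 and 7.39 with it, a difference of -0.91 with an interval of -2.23 to 0.40. Without pericycle salt replicate 1, the 8.89, the AT3G01190 groups did not overlap and the difference was -1.56 (adjusted p = 0.0709). AT5G64100 read 7.86 and 6.63 without salt and 7.00, 7.53 and 7.49 with it, a difference of 0.10 with an interval of -0.71 to 0.91. AT4G30170 had no overlap, AT5G64100 did, and the interval of AT5G64100 spans changes in either direction. By sign alone, 5 of the 7 genes were negative in pericycle. The median there over all probe sets was -0.0006, so a negative sign was about as common as a positive one.

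Some peroxidases were higher in pericycle under salt without passing in the fit to all arrays. AT4G08780 read 1.36 and 2.26 in pericycle controls and 5.89, 4.05 and 2.22 under salt. Its groups overlapped, and its adjusted p was 0.193. PRX52, known for a role in lignin synthesis, read 2.39 and 1.87 in pericycle controls and 5.08, 4.99 and 3.03 under salt. All 3 salt values were above both controls, and the difference was 2.23 (95% interval 1.09 to 3.38, adjusted p = 0.0582). AT4G36430 read 3.11 and 4.36 without salt and 7.52, 4.41 and 5.66 with it, a difference of 2.13 (0.56 to 3.71, adjusted p = 0.171) in which replicate 1 was the highest, and 1.30 (adjusted p = 0.138) without that replicate. AT5G51890, a peroxidase of lignifying xylem, went the other way, from 8.04 and 7.98 to 5.36, 6.31 and 6.79, without overlap, a difference of -1.86 (-2.85 to -0.86, adjusted p = 0.0669).

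**Figure D4:**
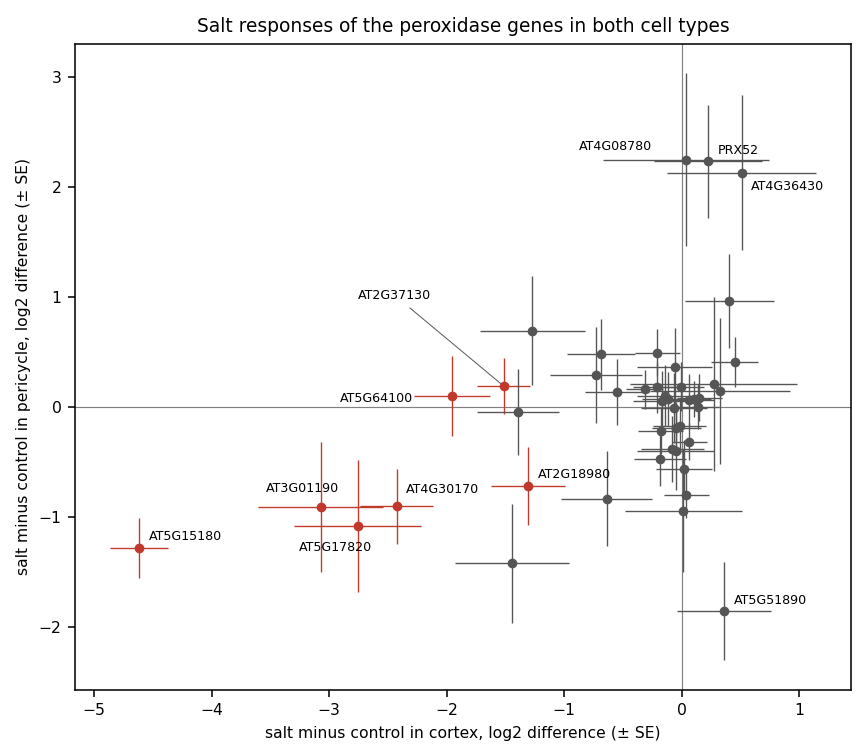
Salt minus control log2 difference of each measured peroxidase in cortex (horizontal axis) and in pericycle (vertical axis), which share no arrays. Points are genes and bars are limma standard errors. AT5G15180 lies farthest to the left, at -4.62 in cortex and -1.28 in pericycle.

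Whether the responses of the cell types differ was tested directly, as the pericycle response minus the cortex response. Of the 45 genes 1 passed (2.22%), against 0.835% of all probe sets, 0.589% with a positive and 0.246% with a negative difference. It was AT5G15180, at 3.34 ± 0.365 (adjusted p = 0.00419), and its decrease was smaller in pericycle in every setting tried, by 3.07 to 3.52 with an array left out. The pericycle values started about 3 log2 units lower, and salt values of both cell types lay near the low end of the scale. AT2G37130 (1.71, adjusted p = 0.0538) and AT5G64100 (2.05, adjusted p = 0.0957) did not pass. An unadjusted p under 0.05 was found for 12 of the 45 genes, against 2823 of all 22746 probe sets. Without pericycle salt replicate 1, AT2G37130 (1.55, adjusted p = 0.0472) and AT2G39040 (1.78, adjusted p = 0.0387) passed too, and 1.92% of all probe sets did. The median over the 45 genes was 0.19 against -0.02 over all probe sets.

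Cell types were then compared without salt. Of the 45 peroxidases, 7 were higher and 7 lower in pericycle, each 15.6%, where 14.9% of all probe sets passed, 6.71% higher and 8.18% lower. Both shares lay above those of all probe sets, and the median difference was 0.12 against 0.02. Groups did not overlap for 22 of the 45 genes (48.9%), against 44.5% of all probe sets, with 12 higher (26.7%, against 22.1%) and 10 lower (22.2%, against 22.4%). Without pericycle salt replicate 1, AT2G22420, AT4G33420 and AT4G36430 were also higher and AT3G01190 also lower in pericycle without salt, and 22.0% of all probe sets passed. Under salt 13 passed (28.9%, against 17.9% of all probe sets). Of these, 10 were higher (22.2%, against 7.76%) and 3 lower (6.67%, against 10.1%), with a median of 0.30 against 0.01. Groups did not overlap for 18 of the 45 (40%), against 34.2% of all probe sets, with 14 higher (31.1%, against 15.0%) and 4 lower (8.89%, against 19.1%). The comparisons without and under salt share no arrays, whereas the comparison without salt uses the same control arrays as both salt responses.

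The lignin peroxidases included the largest difference without salt. All 6 listed lignin peroxidases were measured. In each condition 3 were higher in pericycle, against 6.71% of all probe sets without salt and 7.76% under it. AT5G51890 and AT3G21770 were higher in both conditions, AT5G66390 only without salt and PRX52 only under salt. AT5G51890 read 2.21, 2.83 and 3.41 in cortex controls and 8.04 and 7.98 in pericycle controls, a difference of 5.20 ± 0.446 (36.6-fold, adjusted p = 8.05e-05). Under salt it read 2.73, 3.20 and 3.59 in cortex and 5.36, 6.31 and 6.79 in pericycle, a difference of 2.98 ± 0.399 (adjusted p = 6.61e-04). AT3G21770 read 2.38, 3.32 and 2.77 in cortex controls and 6.78 and 6.62 in pericycle controls (3.88 ± 0.304, adjusted p = 5.06e-05). Under salt its cortex values were 2.27, 2.53 and 2.01 and its pericycle values 6.55, 7.26 and 6.70 (4.57 ± 0.272, 23.7-fold, adjusted p = 7.76e-06). Both genes were near the dim limit in cortex and far above it in pericycle, with no overlap in either condition.

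AT5G66390, known for lignin formation and listed among the Casparian strip peroxidases, read 3.05, 2.56 and 3.30 in cortex controls and 6.18 and 4.46 in pericycle controls (2.35 ± 0.558, adjusted p = 0.0186). It missed the threshold without cortex control replicate 1 or 2 or without pericycle control replicate 1, and under salt it differed by 1.39 (adjusted p = 0.0866), or by 1.87 (adjusted p = 0.0182) without pericycle salt replicate 1. PRX52 passed under salt, with 2.22, 2.34 and 2.13 in cortex and 5.08, 4.99 and 3.03 in pericycle (2.14 ± 0.459, adjusted p = 0.00963). Without pericycle salt replicate 1 the difference was 1.78 (adjusted p = 0.0238). The remaining lignin genes did not pass. AT2G22420 differed by 1.92 without salt (adjusted p = 0.0868) and by 1.73 under it (adjusted p = 0.0736). These values for AT2G22420 were 1.92 (adjusted p = 0.0289) and 1.14 (adjusted p = 0.187) without pericycle salt replicate 1. AT2G41480 read 2.65 to 3.85 over all pericycle arrays and 2.64 to 3.16 over all cortex arrays.

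AT4G11290 belongs both to the Casparian strip peroxidases listed here and to the reported UPB1 targets. It read 4.25, 4.78 and 4.63 in cortex controls and 7.71 and 8.65 in pericycle controls (3.63 ± 0.542, adjusted p = 0.00171). Under salt it read 2.88, 3.40 and 3.05 in cortex and 8.05, 5.93 and 6.30 in pericycle (3.65 ± 0.485, adjusted p = 6.19e-04), and 3.01 without pericycle salt replicate 1. Pericycle values were above all cortex values in each condition. Of the listed Casparian strip peroxidases, which need not be all of them, 3 of 4 were measured, with 2 higher in pericycle without salt and 1 under salt. Over all probe sets these shares were 6.71% and 7.76%. The other member, AT1G44970, was below 2.81 on every array except pericycle control replicate 2, at 4.08. All 3 reported UPB1 targets were measured. AT4G11290 was higher in pericycle, AT5G17820 was lower there without salt, and AT4G16270 read 3.62 to 4.80 over all arrays and did not pass. UPB1 itself read 9.38 and 8.78 in pericycle controls, below all 3 cortex controls (-1.11 ± 0.264, adjusted p = 0.0185), and it missed the threshold without cortex control replicate 2 or 3 or pericycle control replicate 2. With a replicate block UPB1 missed it too.

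Prx37, whose overexpression is known to reduce growth, read 3.91, 5.09 and 4.43 in cortex controls and 6.71 and 8.35 in pericycle controls (3.05 ± 0.497, adjusted p = 0.0027). Under salt it read 2.73, 3.30 and 3.60 in cortex and 8.38, 8.51 and 7.78 in pericycle (5.02 ± 0.444, 32.4-fold, adjusted p = 5.63e-05). The groups were apart in both conditions, and the salt values of pericycle were tight. AT1G71695 read 3.46, 3.65 and 4.46 in cortex controls and 5.84 and 7.30 in pericycle controls (2.72 ± 0.437, adjusted p = 0.00255). Under salt it read 3.51, 3.12 and 2.75 in cortex and 6.94, 7.08 and 6.56 in pericycle (3.74 ± 0.391, adjusted p = 1.51e-04), again without overlap. AT2G34060 was also higher in both conditions, by 1.07 ± 0.248 (adjusted p = 0.0166) and 0.78 ± 0.222 (adjusted p = 0.0363), at levels of 1.65 to 3.10. It missed the threshold in 4 of 17 alternative settings without salt and in 9 of 17 under salt.

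Of the other genes higher in pericycle under salt, AT4G36430 read 2.93, 2.68 and 2.93 in cortex and 7.52, 4.41 and 5.66 in pericycle (3.01 ± 0.632, adjusted p = 0.00852), with 2.18 when replicate 1 was left out (adjusted p = 0.00459), and it passed in all settings tried. AT4G08780, the direct chromosomal neighbour of Prx37, read 1.40, 1.65 and 1.61 in cortex and 5.89, 4.05 and 2.22 in pericycle (2.50 ± 0.704, adjusted p = 0.0343), with 1.58 without replicate 1 (adjusted p = 0.0385). Every pericycle value lay above the cortex values, but the pericycle values were spread over several log2 units. AT5G19890, dim in all groups, differed by 0.55 ± 0.158 (adjusted p = 0.0361) and passed in only 6 of 17 alternative settings. It missed the threshold without any single cortex array, without pericycle salt replicate 1 or 2, and in 3 other settings. AT4G08780 missed it in 8 of 17 alternative settings, among them those without any single cortex array or without pericycle salt replicate 2. Neighbouring peroxidases can share sequence, so signal from Prx37 at the AT4G08780 probe set was not told apart here, and the same holds for AT5G19880 with AT5G19890, AT5G58390 with AT5G58400 and AT5G64100 with AT5G64120.

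**Figure D5:**
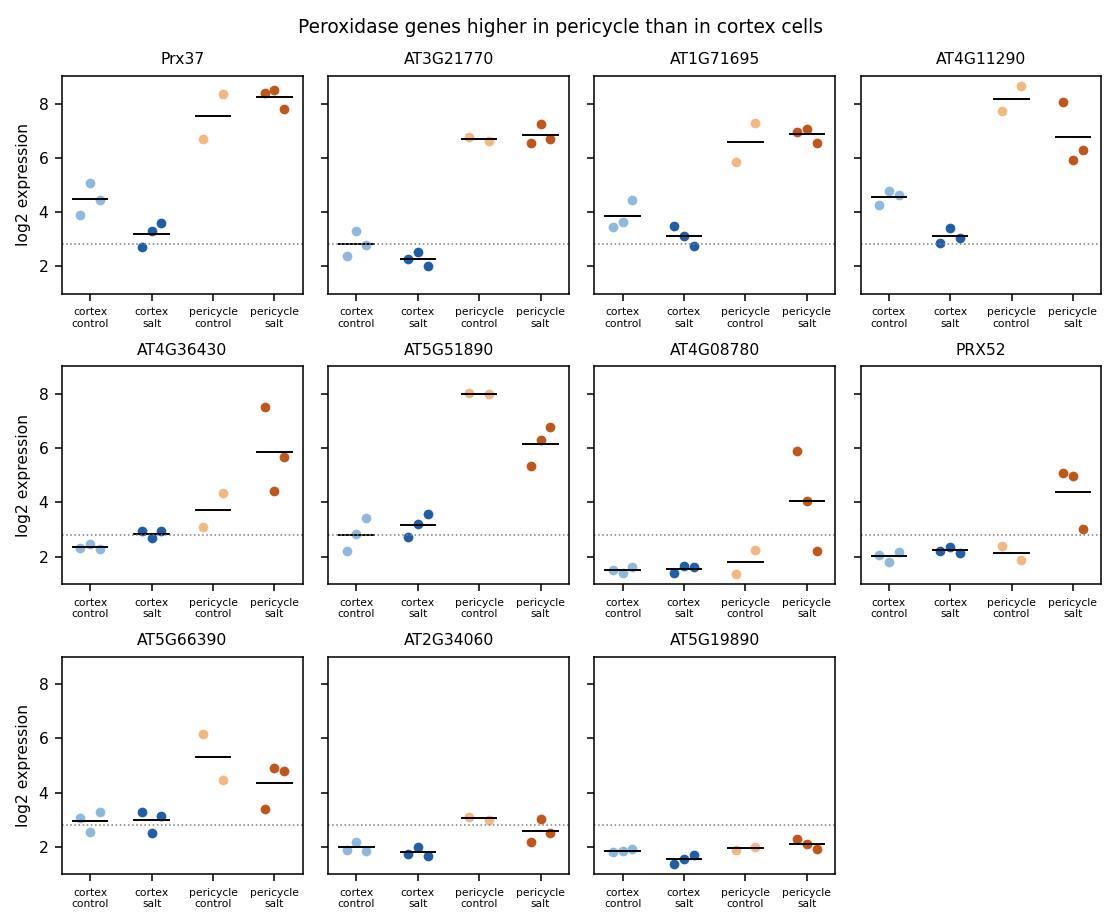
Log2 level (vertical axis) of the peroxidases higher in pericycle named above, with a panel per gene and the 4 groups along the horizontal axis. Points are arrays, black lines are group means and the dotted line is the dim limit of 2.81. AT5G51890 is at 8.04 and 7.98 in pericycle controls and at 5.36 to 6.79 in pericycle salt samples, above all cortex arrays.

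Peroxidases lower in pericycle without salt included 4 that fell with salt in cortex. AT5G15180 differed by -3.04 ± 0.272 (adjusted p = 9.43e-05), AT5G64100 by -2.95 ± 0.363 (adjusted p = 5.84e-04), AT5G17820 by -2.41 ± 0.6 (adjusted p = 0.0228, missed without any single cortex control or without pericycle control replicate 2) and AT2G37130 by -2.10 ± 0.252 (adjusted p = 5.37e-04). These genes were highest in the cortex controls, and since both comparisons use those arrays, the shared pattern is not independent evidence. Under salt none of the 4 passed between the cell types. Their differences were 0.30 (interval -0.25 to 0.84), -0.90 (-1.63 to -0.18, adjusted p = 0.0863), -0.74 (-1.93 to 0.46) and -0.39 (-0.89 to 0.11) in the same order. The AT5G17820 difference under salt was -1.20 (adjusted p = 0.15) without pericycle salt replicate 1.

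AT2G39040 was lower in pericycle in both conditions. It read 6.05 and 6.31 in pericycle controls against 8.97 to 9.08 in cortex controls (-2.86 ± 0.392, 7.25-fold, adjusted p = 0.00106), and 5.26, 7.02 and 6.11 in pericycle salt samples against 7.56 to 7.78 in cortex (-1.51 ± 0.35, adjusted p = 0.0141). The groups did not overlap in either condition. AT2G43480 was lower by smaller amounts, -0.89 without salt (adjusted p = 0.0266) and -0.92 under it (adjusted p = 0.011). The first missed the threshold without any single cortex control, without pericycle control replicate 2, with array weights and with a replicate block. The second, like AT2G39040 under salt, missed it without cortex salt replicate 2. AT2G39040 under salt also missed it with the compared arrays alone. AT5G64120, known for its response to wall damage and for restricting growth, read 2.96, 4.05 and 3.87 in cortex controls and 2.44 and 2.12 in pericycle controls (-1.35 ± 0.323, adjusted p = 0.0191), without overlap. It missed the threshold without cortex control replicate 2 or 3 or pericycle control replicate 2, and also with the compared arrays alone and with array weights. PRXR1 read 10.20 to 10.38 over the 6 cortex arrays and 10.13 and 10.58 in pericycle controls. In pericycle salt samples it read 9.84, 9.23 and 9.61, below all cortex salt samples (-0.75 ± 0.192, adjusted p = 0.0231), and it missed the threshold without any single cortex salt array or without pericycle salt replicate 2. With the compared arrays alone and with a replicate block PRXR1 missed it too.

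Of 9 listed peroxidases linked to pathogen responses and the oxidative burst, 5 were measured. Without salt 1 was higher (Prx37) and 1 lower (AT5G64120) in pericycle, under salt 2 were higher (Prx37 and AT4G36430), and none passed with salt in either cell type. Of all probe sets, 6.71% were higher and 8.18% lower in pericycle without salt, and 7.76% were higher under it. AT5G39580 averaged 5.47 and 5.87 in the cortex groups and 5.55 and 6.51 in pericycle, and AT1G14550 stayed between 2.61 and 3.32 on all arrays.

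The other 23 of the 45 genes passed in no comparison. Their group means ran from 1.59 to 6.51 and their differences with salt from -0.64 to 0.41 in cortex and from -0.84 to 0.96 in pericycle. Among those with the highest levels, AT3G28200 read 3.43 to 4.19 over all arrays. AT4G33420 read 2.18 to 2.68 over the cortex arrays, 4.00 and 4.44 in pericycle controls and 6.56, 2.95 and 3.79 under salt, so every pericycle value was above every cortex value, with no call at differences of 1.93 (adjusted p = 0.147) and 1.87 (adjusted p = 0.103). The AT4G33420 differences were 1.93 (adjusted p = 5.44e-04) and 0.81 (adjusted p = 0.0475) without pericycle salt replicate 1, and both then passed. AT2G35380, AT4G25980, AT3G50990 and AT5G58400 read 1.91 to 3.48. The 11 genes not named here had group means of 1.67 to 2.34.

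Few genes of the surrounding pathway were measured. Of 19 genes of monolignol synthesis, which makes the lignin precursors, 2 were measured. HCT was higher in pericycle by 2.09 ± 0.352 without salt (adjusted p = 0.00329) and by 2.92 ± 0.315 under salt (adjusted p = 1.81e-04), and CCR2 by 3.67 ± 0.718 under salt (adjusted p = 0.00602). Neither passed with salt in either cell type. Of 17 laccases, which also oxidise lignin precursors, 1 was measured, LAC16, and it passed in no comparison. Of 18 superoxide dismutases, catalases and ascorbate peroxidases 2 were measured, and SAPX was higher in pericycle under salt by 0.61 (adjusted p = 0.0317), a difference that passed in 9 of 18 alternative settings. None of 12 suberin genes was measured.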

How the data were processed

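Log2 expression values were used as the authors deposited them, 22810 probe sets on each of 11 arrays, with no further normalization. Per the submitters' processing notes, RMA and limma were used, with no versions and no roles stated. That the scale is log2 was taken from the range, 0.893 to 12.9, with array medians of 3.41 to 3.59. These are low for default RMA, so the making of the lowest values is unsettled, which touches the dim limit of 2.81 and any fold close to it. Detection calls were not used, arrays give no read depth, and their number limits the precision.

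Leaving out 64 array controls left 22746 probe sets. Of these, 13513 had exactly 1 gene in the probe annotation, 503 had several and 8730 had none. Gene identifiers of 13436 were matched to RefSeq annotation of TAIR10.1 for symbols. The genome build was not given in the sources used here, and no coordinates are printed.

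The 11 arrays entered 1 model in limma 3.58.1 (R 4.3.3) through lmFit, contrasts.fit and a plain eBayes (no trend, no robust option). It held 4 group means and 7 residual and 2.96 prior degrees of freedom. Tests were two-sided, p-values were adjusted by the Benjamini-Hochberg method over 22746 probe sets within each of 5 comparisons, and the threshold was an adjusted p under 0.05. Intervals cover 95% and are for single genes. The procedure was tested on simulated data in which each gene had the same spread in all groups. The measured groups differed in spread, and that case was not simulated. Alternatives were array weights, quantile normalization, a filter on dim probe sets, eBayes with trend and robust, a replicate block, 1 probe set per gene, fits to the compared arrays alone and leaving out each array.

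Named genes were those that passed in any comparison, those of the background sets (UPB1 targets, Casparian strip, lignin, pathogen response) and the 6 highest of the rest. The members and lists were chosen with earlier results of these data known. Replicates are separate tanks per the labels.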

Additional observations from a re-analysis of the deposited data

Results flagged for a closer look

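The peroxidase AT5G15180 drew attention because its salt responses in the cell types differed by the test of the difference itself. The decrease was 3.34 log2 units smaller in pericycle than in cortex. Its log2 differences with salt were -4.62 in cortex and -1.28 in pericycle. Groups of 2 and 3 arrays were too small for a test of outlying samples.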

How the results depend on the processing

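No called difference changed sign under any alternative. Calls in cortex with salt numbered 7, against 12 with the compared arrays alone and 13 with array weights, and 4 to 9 with an array left out. Over all probe sets these 2 alternatives called 19.7% and 21.0%. In pericycle the single call became 0 with the compared arrays alone (4 at an unadjusted p under 0.05, and 0 of all probe sets passed), 0 with array weights (8, and 0.141% of all probe sets) and 0 with 1 probe set per gene (10), and 0 to 4 with an array left out. With trend and robust eBayes the 1 call was PRX52, which rose, and not AT5G15180. The difference of responses gave 1 call, 2 with trend and robust eBayes, and 1 to 4 with an array left out. Without salt the cell types gave 10 to 18 calls with an array left out, the 18 without pericycle salt replicate 1, where 22.0% of all probe sets passed. Under salt they gave 8 with the compared arrays alone (13.6% of all probe sets) and 8 to 16 with an array left out. Where a pericycle control was left out, the lone control was assumed to vary like the other groups. The fit to the compared arrays alone is the same as the full fit for the difference of responses and was not run.

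The replicate block gave 6 calls in cortex, 1 in pericycle (AT5G51890), 2 in the difference of responses, 13 between cell types without salt and 11 under salt. Replicate numbers did not pair the arrays, since 15 same-numbered pairs had residual correlations of -0.151 to 0.107, 1 of them over 0.1. Calls that passed in all settings were 4 of 7, 0 of 1, 1 of 1, 9 of 14 and 7 of 13 in the order above.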
